A study of Mus musculus with 4 samples.

Results

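The transcripts described here encode the enzymes and carriers of the urea cycle and of amino acid breakdown in mouse liver. They were chosen by name, with earlier results of these data known. The list holds 41 genes of the urea cycle and of the breakdown of tyrosine, tryptophan, histidine, lysine, proline, glycine, methionine, choline and sulfur amino acids. Shares set beside those of all genes therefore describe the list and test nothing. A gene was measured where the array annotation gave a probe set (a group of short probes against 1 transcript) that gene's symbol alone. This held for 37 of the 41, among 18193 genes named in this way, through 52 probe sets. Gls2, Acmsd, Sds and Sdsl were not analysed here. RNA came from liver of C57BL/6J mice 48 h after surgery, with 2 arrays after a sham operation and 2 after partial hepatectomy, in which part of the liver is removed and the rest regrows. The design text names the arrays of each group as biological duplicates. The share of liver removed, the sex and age of the mice, and the number of animals behind an array were not stated.

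The liver breaks down most amino acids that are not needed for protein. Their nitrogen is collected by aminotransferases and glutamate dehydrogenase as glutamate and ammonia, and the urea cycle, which runs partly in mitochondria and partly in the cytosol, turns ammonia and aspartate into urea. The carbon skeletons are fed into glucose synthesis, ketone bodies or the citric acid cycle, and side branches make taurine from cysteine, nicotinamide nucleotides from tryptophan and methyl donors from methionine. Many of these enzymes are far more abundant in hepatocytes than in other cells, and some are also made in kidney.

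Values are signals on a linear scale, and each array had a mean of 500 once the outer 2% of values at each end were removed. Differences are given as hepatectomy minus sham on the log2 scale after adding an offset of 8.57, with the standard error from limma, a linear model that shares information on spread across genes. A gene was called at a Benjamini-Hochberg adjusted p under 0.05 over 27022 tested probe sets, and each gene was read from its brightest tested probe set. The differences of the 7 hepatocyte markers measured lay between -0.21 and 0.12, with none called. The summed signal of 12 adrenal gland markers was 21270.2 in hepatectomy replicate 1 and between 259 and 317 on the other arrays. For 5 fat markers the sum was 6678 in hepatectomy replicate 1, 2869 in hepatectomy replicate 2, and 1221 and 1331 after sham surgery. By limma 1 fat marker, Fabp4, was called higher, and no adrenal marker was called. None of 7 kidney markers was bright enough to be tested, and their summed signal lay between 91.9 and 121 on all 4 arrays. Markers of other liver cells moved with the groups as well. Of 8 stellate cell markers 3 were called higher, Col1a1 (2.64), Col3a1 (1.62) and Acta2 (1.61), and 1 lower, Ecm1 (-0.98). Of 8 macrophage markers Marco was called higher (3.45) and Csf1r lower (-0.70), and no marker of endothelium, cholangiocytes, exocrine pancreas or red cells was called. Their part in the members' values was not tested. In bulk tissue, fewer cells of a type and less RNA per cell cannot be told apart.

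Read from their brightest probe set, most transcripts of amino acid catabolism differed little from sham 48 h after hepatectomy, and 3 were called lower. Csad, which makes the taurine precursor hypotaurine, Afmid, which releases kynurenine in tryptophan breakdown, and Prodh, the first enzyme of proline breakdown, fell to 18.5%, 25.1% and 46.3% of their sham level (from the log2 differences defined above). The calls of Afmid and Prodh depended on the settings, as given below. Of the 37 members 3 were lower by limma, or 8.11%, against 1.09% of all 12560 genes tested. In either direction 4.67% of all genes were called. Here and below, the shares of all genes were not matched to the members for brightness, and its part was not tested. None was higher, against 3.57% of all genes tested, a share that comes to very few genes in a list of this size; at an unadjusted p under 0.05, 1 member was higher (12.5% of all genes) and 10 were lower (7.47% of all genes). The other 34 differences lay within a narrow band, and 33 of the 37 members differed by less than 0.5, as did 75.5% of all genes.

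**Figure D1:**
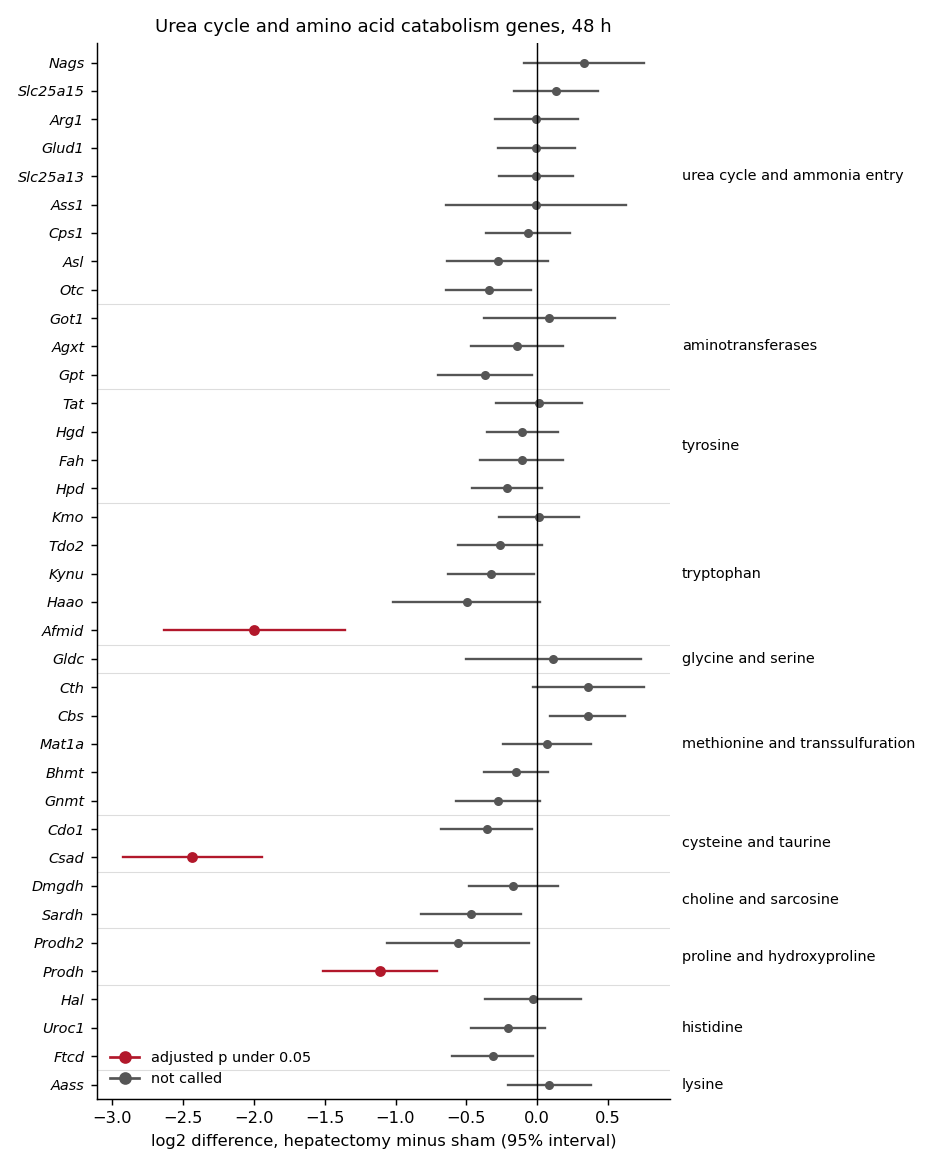
The x axis gives the log2 difference, hepatectomy minus sham, of the 37 members by pathway; points are estimates from 2 arrays per group and bars their 95% intervals. Csad, Afmid and Prodh, in red, are the 3 called members, and every other member lies between -0.56 and 0.36.

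Small differences leaned downward. The median difference of the members was -0.14, against 0.02 over all tested genes, and 27 of 37 were negative (73.0%, against 47.06% of all genes); the number was 31 after centring each array on its median and 23 after quantile normalization. Both hepatectomy arrays lay under both sham arrays for 18 members, or 48.6%, against 23.2% of all genes, and above both for 3, or 8.11%, against 28.1%. The lean rested partly on sham replicate 1: without it the median was -0.0505 with 21 negative values, and without sham replicate 2 it was -0.27 with 31. Without hepatectomy replicate 1, the array with adrenal transcripts, the median was -0.15. Fat markers were not confined to that array, as their sum was also higher in hepatectomy replicate 2 than after sham surgery. Whichever array was left out, Csad lay between -2.69 and -2.17, Afmid between -2.44 and -1.55, and Prodh between -1.29 and -0.94. Wherever an array is left out, 1 group holds a single array, which is assumed to vary like the other group. Adjusted p-values from such fits therefore rest on the spread of 1 pair and on limma's shared estimate.

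**Figure D2:**
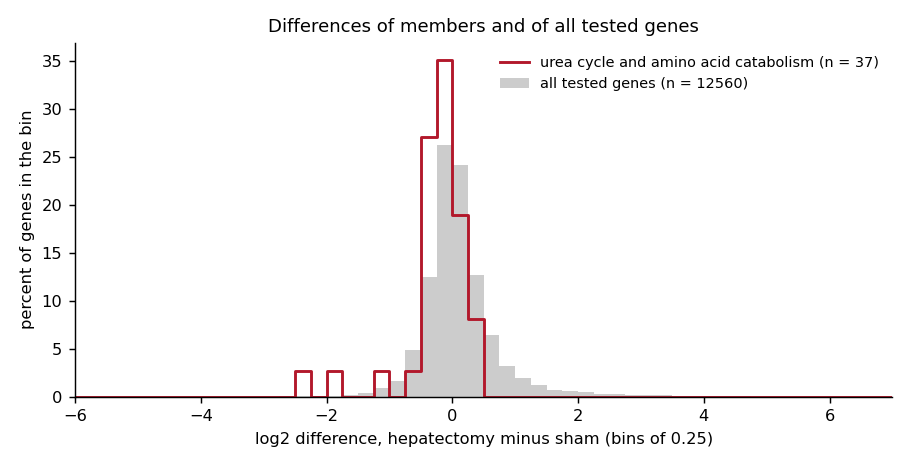
Percent of genes (y axis) in bins of 0.25 of the log2 difference, hepatectomy minus sham (x axis), for all 12560 tested genes in grey and the 37 members as a red line. The members fill a narrow range around -0.14, apart from single genes near -2.43, -2.00 and -1.11, and have no upper tail.

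The deepest fall was in taurine synthesis. Csad, cysteine sulfinic acid decarboxylase, had signals of 3361 and 2339 after sham surgery and 544 and 482 after hepatectomy (probe set 1427981_a_at). Both hepatectomy arrays were low and close to each other, and the groups were far apart. The means were 2849.8 ± 723 and 513 ± 43.6 (SD, n = 2 arrays per group), and the difference was -2.43 ± 0.21 (SE; limma adjusted p = 0.00114). Csad was called under each of the 14 alternative settings in which it could be measured, with values from -2.69 to -2.17. Cdo1, cysteine dioxygenase, makes the substrate of Csad. Its signals were 12714 and 10048 after sham surgery and 9401 and 8289 after hepatectomy, a difference of -0.36 ± 0.14 that did not pass (adjusted p = 0.25). The hepatectomy arrays lay below both sham arrays; whether the difference was smaller than that of Csad was not tested.

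Of the 5 tested members of tryptophan breakdown 1 passed the test, Afmid. Tdo2, tryptophan dioxygenase, opens the ring and controls entry to the pathway. Its brightest probe set gave 11476 and 9248 after sham surgery and 8398 and 8747 after hepatectomy, a difference of -0.27 ± 0.13 (adjusted p = 0.359), and its other 2 gave -0.46 and -0.41, neither called. Every hepatectomy signal of Tdo2 lay under both sham signals in all 3 probe sets. Afmid, arylformamidase, carries out the next step, in which N-formylkynurenine becomes kynurenine. Its signals were 3084 and 1659.7 after sham surgery and 537 and 586 after hepatectomy (probe set 1452944_at), means of 2372 ± 1007 and 561 ± 35.1 (SD, n = 2). The sham arrays differed widely from each other, yet the lower of them was well above both hepatectomy arrays. The difference was -2.00 ± 0.28 (adjusted p = 0.00868). Another probe set, 1428885_at, also fell, by 1.88 ± 0.32 from 1913 and 1287 to 306 and 574 (adjusted p = 0.0189). A further one, 1431722_a_at, differed by -0.98 ± 0.27 and did not pass (adjusted p = 0.112), and the last, 1447638_at, was too dim to be tested. The call of Afmid was lost without the filter on dim probe sets (adjusted p = 0.0532) and without the mean-variance trend of limma (adjusted p = 0.107).

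Below Afmid the pathway divides. Kmo, kynurenine monooxygenase, differed little, with 5698 and 5186 after sham surgery and 5673 and 5298 after hepatectomy and a difference of 0.01 ± 0.12 (95% interval -0.27 to 0.29). Kynu, kynureninase, had 3487 and 3439 against 2821 and 2696 (sham, then hepatectomy), a difference of -0.33 ± 0.13 that did not pass (adjusted p = 0.265). Its dimmer probe set, 1451903_at, gave -0.77 ± 0.30 and did not pass either (adjusted p = 0.243). Haao, which makes the precursor of quinolinate, had 7354 and 5799 against 3635 and 5869.7. Its hepatectomy replicate 1 alone was low, the groups overlapped, and the difference of -0.50 ± 0.22 was not called (adjusted p = 0.318). That difference was -0.84 without hepatectomy replicate 2 and -0.15 without hepatectomy replicate 1, the array with adrenal transcripts. Whether the differences of these enzymes differ from each other was not tested.

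Prodh, proline dehydrogenase of the inner mitochondrial membrane, had signals of 4177 and 3274 after sham surgery and 1867 and 1562 after hepatectomy (probe set 1417629_at). Both hepatectomy arrays were low, and the groups did not overlap. The means were 3726 ± 639 and 1715 ± 216 (SD, n = 2), and the difference was -1.11 ± 0.17 (adjusted p = 0.0144). Without sham replicate 1 it was -0.94 and not called (adjusted p = 0.127), and the call was also lost without the filter (adjusted p = 0.0626) and without the trend (adjusted p = 0.142). Prodh2, which acts on hydroxyproline, had 3782 and 2972 after sham surgery and 1851 and 2788 after hepatectomy. Only hepatectomy replicate 1 was clearly low, replicate 2 lay just under the lower sham array, and the difference of -0.56 ± 0.22 did not pass (adjusted p = 0.247). It was -0.85 without hepatectomy replicate 2 and -0.27 without hepatectomy replicate 1, the array with adrenal transcripts.

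The bases upstream of Prodh are shown because it is one of the 3 members that fell, and no other gene's RefSeq start was found within 1000 bases of its own. Overlap with the body of another gene was not checked. They are the part of the 250 bases before a RefSeq start (GRCm38.p6) that lies outside the gene's whole annotated extent, at chr16:18089284-18089440 on the minus strand, 5′ to 3′. No capitals appear, as none of the motifs named below was found.
Prodh: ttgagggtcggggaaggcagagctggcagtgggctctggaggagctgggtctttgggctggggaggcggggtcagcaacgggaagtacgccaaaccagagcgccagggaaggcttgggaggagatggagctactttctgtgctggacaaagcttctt
These 157 bases had a GC content of 61.1%, and the whole 250-base window of Prodh had 63.2%. The 250-base windows had a median of 52.4% over all genes and 56.0% over the members. The motifs searched, on both strands, were the TATA box (TATAAA), the CCAAT box (its own letters), the GC box (GGGCGG) and the E-box (CACGTG), none of which overlaps another. The whole Prodh window held none of them. The window before the inner of the annotated starts of Csad, which lies within the gene, held 1 GC box, 72 bases before that start, and none of the others, and the window before the outer start held a CCAAT box. Over 32851 windows the GC box was found in 32.7%, the TATA box in 12.4%, the CCAAT box in 33.8% and the E-box in 6.02%. Windows were found for 29 of the 37 members, 31 in all, and held these motifs in 38.7%, 12.9%, 45.2% and 12.9%.

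**Figure D3:**
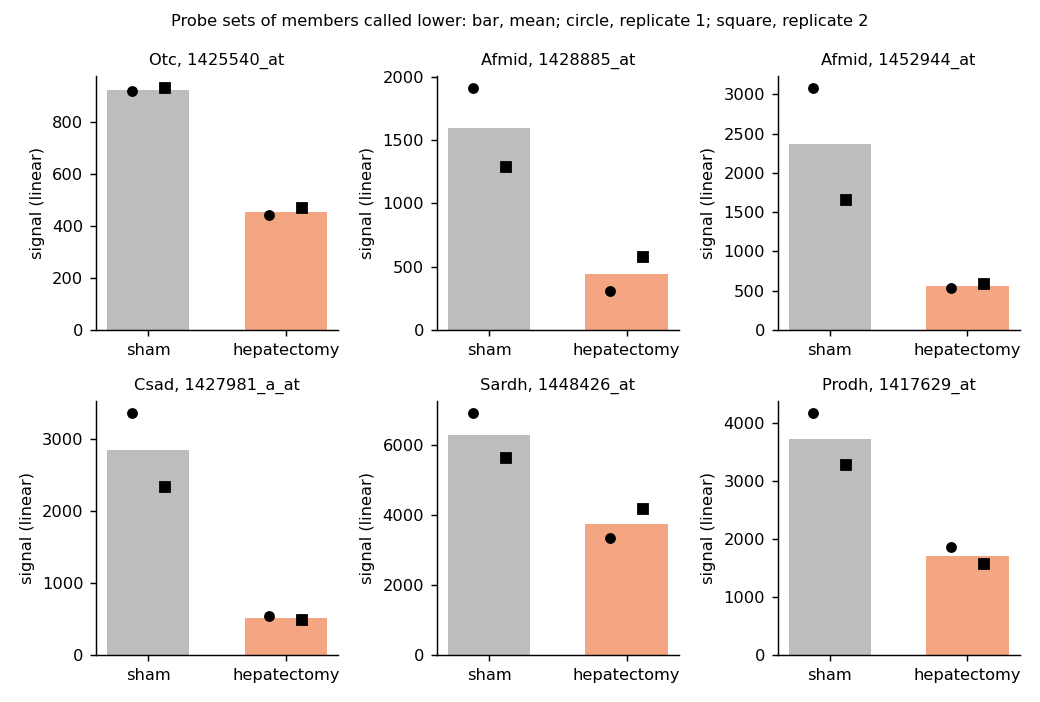
Linear signals of the 6 member probe sets called lower, in sham and hepatectomy liver; bars are means of 2 arrays, circles replicate 1 and squares replicate 2. In each panel both hepatectomy arrays lie under both sham arrays; the Otc and Sardh probe sets shown are not the brightest of their gene.

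The urea cycle gave no call. None of its 9 tested members, the carriers and glutamate dehydrogenase included, was called by limma in its brightest probe set. At an unadjusted p under 0.05 there was 1 lower, Otc (7.47% of all genes), and none higher (12.5% of all genes). Cps1, carbamoyl phosphate synthetase, fixes ammonia in the mitochondrion. Its signals were 16014 and 14127 after sham surgery and 15998 and 12912 after hepatectomy; the groups overlapped and the difference was -0.07 ± 0.13 (95% interval -0.36 to 0.23), so the interval runs from 77.8% to 117% of the sham level. Arg1, the arginase that releases urea, had 13280.4 and 10618 after sham surgery and 11799.5 and 11859 after hepatectomy, a difference of -0.01 ± 0.13 with an interval from 81.5% to 122%. Glud1, glutamate dehydrogenase, and Slc25a13, the aspartate-glutamate carrier citrin, differed by -0.01 ± 0.12 and -0.01 ± 0.11. For these 4 genes the 95% intervals lay within 1 log2 unit either way.

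Asl, argininosuccinate lyase, had 12309 and 8952 after sham surgery and 8532 and 8756 after hepatectomy. Sham replicate 1 alone was high, and the difference of -0.28 ± 0.15 did not pass (adjusted p = 0.421). Ass1, argininosuccinate synthetase, was read from a single probe set and had 319.5 and 374 against 272 and 433. The difference was -0.01 ± 0.28 with the wide interval of -0.65 to 0.63. This probe set was far dimmer than that of Asl, and whether it measures the main Ass1 transcript was not checked. A further probe set is annotated to both Ass1 and another gene and was not used. Nags, which makes the obligate activator of Cps1, was higher in both hepatectomy arrays (1546 and 1377 against 1607 and 2106), though the difference of 0.33 ± 0.18 did not pass (adjusted p = 0.426). Slc25a15, the ornithine carrier, gave 0.13 ± 0.13 in its brightest probe set and 0.88 ± 0.37 in the other, 1420966_at, where hepatectomy replicate 1 stood apart (482 and 313 against 1066 and 490.4; adjusted p = 0.285).

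Otc, ornithine transcarbamylase, was the member of the cycle with the lowest value, and its 3 probe sets differed in size. The brightest, 1420525_a_at, had 13607 and 11184 against 9104 and 10409, a difference of -0.34 ± 0.13 that did not pass (adjusted p = 0.239). The next, 1436615_a_at, had 8532 and 8775 against 5949 and 6489, a difference of -0.48 ± 0.11 (adjusted p = 0.066). The third, 1425540_at, had 918 and 930.4 against 443 and 467 and fell by 1.01 ± 0.19 (adjusted p = 0.0281). In all 3 both hepatectomy arrays lay under both sham arrays, and in the last the replicates of each group nearly coincided. Leaving out either sham array ended that call (adjusted p = 0.229 without replicate 1 and 0.182 without replicate 2), while the difference stayed between -1.05 and -0.97 whichever array was left out.

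Methionine and transsulfuration enzymes included the highest values among the members. Cbs, cystathionine beta-synthase, joins homocysteine to serine. Its brightest probe set, 1423844_s_at, had 7234 and 7442 after sham surgery and 10027 and 8805 after hepatectomy, a difference of 0.36 ± 0.12 (adjusted p = 0.164), and the other, 1425623_a_at, had 2884 and 3218 against 4617 and 4530.1 and 0.58 ± 0.13 (adjusted p = 0.0562). Hepatectomy was above sham on every array in both, and neither passed. Cth, cystathionine gamma-lyase, which splits cystathionine to cysteine, had 6333 and 5369 against 8792 and 6387. Hepatectomy replicate 1 was the high array and the difference of 0.36 ± 0.17 did not pass (adjusted p = 0.341). The methionine adenosyltransferase Mat1a, which makes the methyl donor S-adenosylmethionine, differed by 0.07 ± 0.14, and its groups overlapped.

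Gnmt, glycine N-methyltransferase, which uses up surplus methyl groups, had 16731 and 13145 after sham surgery and 11977 and 12523 after hepatectomy, a difference of -0.28 ± 0.13 (adjusted p = 0.338). Its sham replicate 1 was high and the other 3 arrays were close to each other. Bhmt, which remethylates homocysteine with betaine, had 16595 and 15492 against 14972 and 13937 and differed by -0.15 ± 0.10. In choline breakdown, Dmgdh, dimethylglycine dehydrogenase, differed by -0.17 ± 0.14. Sardh, sarcosine dehydrogenase, the next step, had 9451 and 7657 against 5540.2 and 6828 in its brightest probe set, a difference of -0.47 ± 0.15 that did not pass (adjusted p = 0.166). Its other probe set, 1448426_at, had 6918 and 5639 against 3347 and 4163 and fell by 0.74 ± 0.16, just past the threshold (adjusted p = 0.0492). Without sham replicate 1, sham replicate 2 or hepatectomy replicate 1 that probe set was not called (-0.59, -0.89 and -0.58; adjusted p = 0.293, 0.0679 and 0.112), nor was it after median centring (-0.83, adjusted p = 0.0582). It was called in 8 of 14 alternative settings. The calls of these Otc and Sardh probe sets also ended without the filter (adjusted p = 0.0614 and 0.159) and without the trend (adjusted p = 0.115 and 0.253), settings that leave the differences themselves as they were.

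The aminotransferases, tyrosine, histidine, lysine and glycine enzymes gave no call. At an unadjusted p under 0.05, 2 of these 12 genes were lower, Gpt and Ftcd (7.47% of all genes), and none was higher (12.5% of all genes). Tat, tyrosine aminotransferase, a classical glucocorticoid-induced enzyme, had 6569 and 5895 after sham surgery and 6808 and 5792 after hepatectomy. The arrays of the groups interleaved and the difference was 0.01 ± 0.13 (95% interval -0.29 to 0.32). Hpd, which makes homogentisate, had 14531 and 12689 after sham surgery and 11565 and 11826 after hepatectomy, with both hepatectomy arrays slightly low and a difference of -0.22 ± 0.11 (adjusted p = 0.373). Hgd, which opens the homogentisate ring, and Fah, fumarylacetoacetase, the last step, differed by -0.10 ± 0.11 and -0.11 ± 0.13. All 4 intervals of the tyrosine pathway lay within 0.5 either way.

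Gpt, alanine aminotransferase, had 4857 and 4086 against 3633 and 3279.9, a difference of -0.37 ± 0.14 (adjusted p = 0.25). The dimmer Gpt probe set, 1453216_at, gave -0.08 ± 0.22 (adjusted p = 0.911). Got1, the cytosolic aspartate aminotransferase, differed by 0.08 ± 0.20 with overlapping groups. Agxt, which detoxifies glyoxylate, had 6985 and 7587 against 5880.4 and 7416 and differed by -0.14 ± 0.14. In histidine breakdown Hal, histidase, differed by -0.03 ± 0.15, and Uroc1, urocanase, by -0.20 ± 0.11 from 11055 and 9613 against 9039.6 and 8863. The dimmer Uroc1 probe set, 1425003_at, gave -0.46 ± 0.22 (adjusted p = 0.353). Ftcd, which passes the one-carbon unit to folate, differed by -0.31 ± 0.12 (adjusted p = 0.253). Aass, the bifunctional enzyme that opens lysine breakdown, had 7372 and 6962 against 8293 and 6982, a difference of 0.09 ± 0.13. Gldc, the glycine decarboxylase of the glycine cleavage system, had 2922 and 1714 against 2888 and 2029. Replicate 1 was the higher array in both groups, which leaves the difference of 0.11 ± 0.27 with an interval of -0.51 to 0.73.

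Probe sets of the same gene gave the same sign throughout: 11 members had several tested probe sets, 25 in all, and in all 11 the signs matched. Their sizes did not. In each of these genes but Gpt and Afmid, the brightest probe set, from which the gene was read, gave the smallest difference. Of 51 tested member probe sets 6 were called lower and 0 higher, against 0.877% of all 27022 tested probe sets lower and 3.39% called in either direction. Sham replicate 1 was above sham replicate 2 for 34 of 37 members (45.9% of all genes), and it was the highest of the 4 arrays for 28 (23.2% of all genes). Summed over the members, signals were 310072 and 262217 after sham surgery and 261156 and 254453 after hepatectomy. The 7 hepatocyte markers also had their highest sum in sham replicate 1 (121594). Their lowest was in sham replicate 2 (103461), under both hepatectomy arrays (110645 and 107685). Their part in the members' lean was not tested. Neither hepatectomy array was the higher for most members, with replicate 1 above replicate 2 for 19 of 37.

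**Figure D4:**
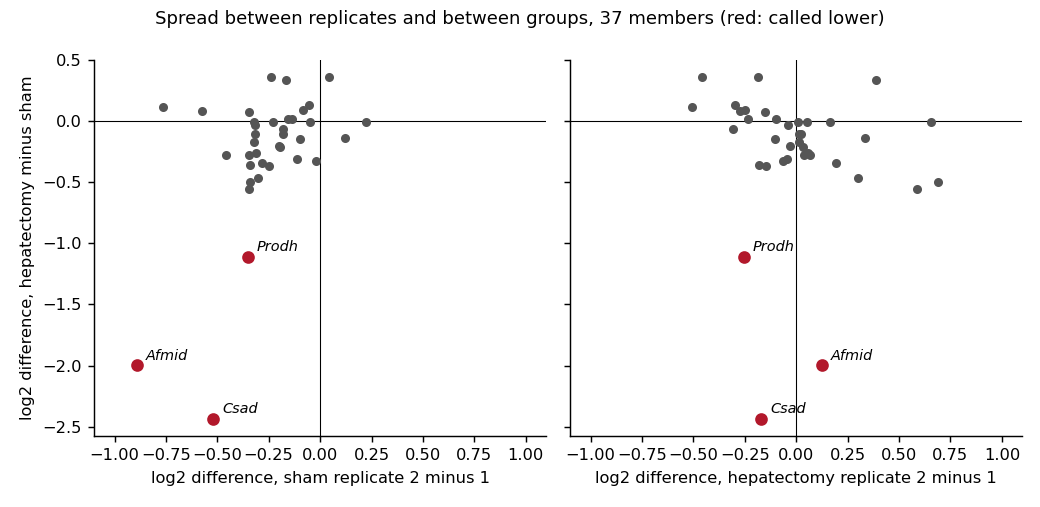
Log2 difference between groups (y axis) against the log2 difference between the 2 replicates of a group (x axis; sham left, hepatectomy right) for the 37 members. On the left all but 3 points lie left of 0, as sham replicate 1 was the higher; Csad, Afmid and Prodh, in red, lie far below the rest in both panels.

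The lean downward was also seen in other genes of amino acid breakdown, likewise listed with earlier results of these data known. Of 48 tested genes of a list of 54 further enzymes, 1 was lower and 0 higher by limma, or 2.08% lower against 1.09% of all genes, which is near the background; at an unadjusted p under 0.05, 17 were lower (7.47% of all genes) and 1 higher (12.5% of all genes). Sham replicate 1 was the high sham array here too, with a summed signal of 253852 against 222632 in sham replicate 2 and a median difference, replicate 2 minus 1, of -0.18. The called gene was Aadat, the aminotransferase of kynurenine and aminoadipate, with 4982 and 4794 after sham surgery and 2760.2 and 3001 after hepatectomy and a difference of -0.76 ± 0.13 (adjusted p = 0.0196). Leaving out either sham array ended the call (adjusted p = 0.137 without replicate 1 and 0.0879 without replicate 2), as did dropping the filter (adjusted p = 0.0696) or the trend (adjusted p = 0.186). The difference itself stayed between -0.82 and -0.70 whichever array was left out. The list had a median of -0.23, which was not taken again without sham replicate 1. Of its values 39 were negative (81.2%, against 47.06% of all genes). Both hepatectomy arrays lay under both sham arrays for 27 genes (56.2%, against 23.2% of all genes). Enzymes of branched-chain amino acid breakdown were grouped by pathway after the values were seen, with all 4 arrays in use. Of these 17 enzymes 15 were negative (47.06% of all genes), with a median of -0.38 and none called. Among them were Auh of leucine breakdown (-0.66 ± 0.17, adjusted p = 0.0805), Mccc1, a subunit of methylcrotonyl-CoA carboxylase (-0.57 ± 0.15, adjusted p = 0.102), and Hibch of valine breakdown (-0.50 ± 0.16, adjusted p = 0.149). Ethe1, which oxidises sulfide sulfur, had 1933 and 1850.0 against 1198 and 1186, with little spread within either group, and differed by -0.66 ± 0.15 (adjusted p = 0.0637). Oat, ornithine aminotransferase, was the 1 gene of the list at an unadjusted p under 0.05 with a higher value (0.36 ± 0.12, adjusted p = 0.187).

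**Figure D5:**
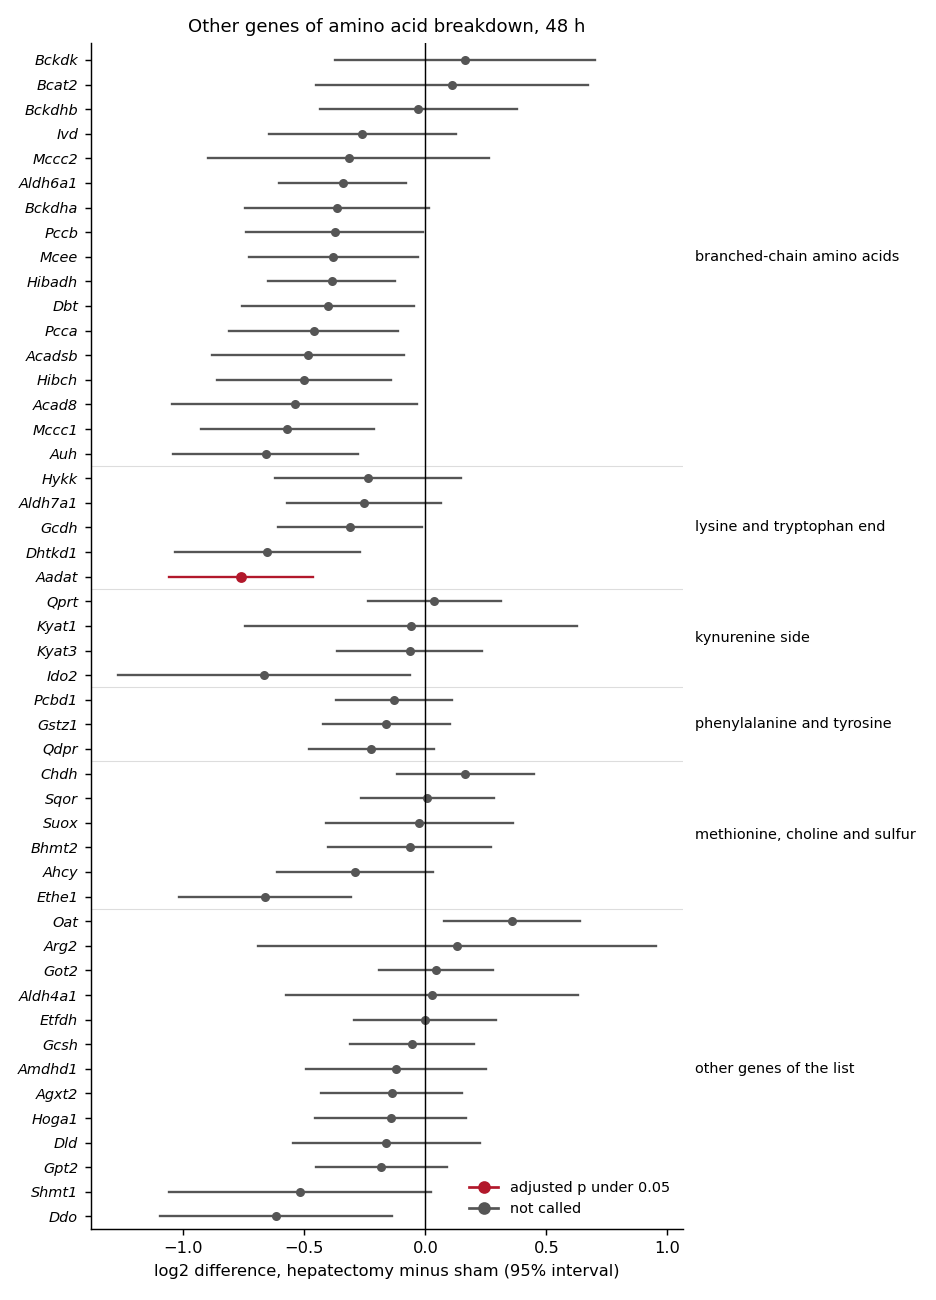
Log2 difference, hepatectomy minus sham (x axis), of the 48 tested further genes of amino acid breakdown, with 95% intervals; Aadat, in red, is the 1 called gene. Most points lie left of 0, and the branched-chain enzymes have a median of -0.38.

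None of 13 transcription factors, receptors and cofactors that act on these pathways was called by limma. At an unadjusted p under 0.05, 4 were lower (7.47% of all genes) and 0 higher (12.5% of all genes). The 4 were Foxo1 (-0.75 ± 0.20, limma adjusted p = 0.0959), Foxa2 (-0.66 ± 0.23, adjusted p = 0.202), Klf15 and Cebpa. Klf15, a factor that drives amino acid breakdown in fasting, had 4634 and 4909.6 after sham surgery and 2614 and 3329 after hepatectomy, a difference of -0.69 ± 0.15 just outside the threshold (adjusted p = 0.0544). Cebpa, which maintains urea cycle genes in hepatocytes, had 10404 and 8956 against 6463 and 6823 and differed by -0.54 ± 0.12 (adjusted p = 0.0547). In both, the hepatectomy arrays lay under the sham arrays. Klf15 was called in 5 of 15 alternative settings and Cebpa in 4. Whichever array was left out, Klf15 lay between -0.87 and -0.52 and Cebpa between -0.65 and -0.43. Hnf4a, a nuclear receptor that marks hepatocyte identity, had 12608 and 11719.8 against 11559 and 10740.4 and differed by -0.13 ± 0.10 (95% interval -0.37 to 0.11).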

How the data were processed

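The authors' deposited values are intensities, with a single value for each probe set; the submitters' processing notes name GCOS 1.4. No setting, detection call or scan date was found in the labels or the file, and no batch was tested. Of 45101 probe sets, 64 controls were left out; per the platform annotation 34945 of the rest had 1 gene symbol, 932 several and 9160 none or no entry. Signals were turned to log2 after adding 8.57, the 20th percentile, which understates fold changes of dim genes. Probe sets under the 40th percentile of the mean (5.09) were left out, which kept 27022, with 12560 genes. Groups were compared with limma 3.58.1 in R 4.3.3 (lmFit and eBayes with trend, two-sided, 2 residual and 6.02 prior degrees of freedom). The code was tested on simulated data. With 2 arrays per group the number of arrays limits precision, and whether the spread behind a p-value is technical cannot be told. All members are eligible for naming; all 4 signals are given for called members, the brightest member of each pathway and members whose probe sets differ in call. Members and lists were chosen with earlier results of these data known. Of the further enzymes, 50 of 54 had a probe set, and of the regulators 13 of 14; summed signals of other marker lists ran over the arrays from 739 to 1515 (exocrine pancreas), 14882 to 16123 (macrophage), 8311 to 11001 (sinusoidal endothelium), 459 to 1279 (cholangiocyte), 11006 to 14637 (stellate) and 985 to 2822 (red cell). The replicate numbers of the titles name arrays; nothing in the labels ties equal numbers to each other. Start windows came from RefSeq, GRCm38.p6, matched by symbol. In all, 15 alternative settings were run.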

Additional observations from a re-analysis of the deposited data

How the results depend on the processing

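The count of 3 members lower became 1 (Csad) with no filter on low signals and 1 (Csad) with no trend, and lay between 2 and 5 when an array was left out; no setting called a member higher. The median of the members was -0.23 after median centring and between -0.27 and -0.0505 when an array was left out. The count of 1 called gene among the further enzymes was 0 without the filter or without the trend, 2 with a filter at the 60th percentile, 2 with robust eBayes, 4 with the replicate number as a block, and between 0 and 5 when an array was left out. Over all genes 586 were called; 218 without the filter, 173 without the trend, 1189 with the block, 231 without sham replicate 1, 321 without sham replicate 2 and 1249 without hepatectomy replicate 2. The deviation of sham replicate 1 correlated with that of hepatectomy replicate 1 at 0.10 over probe sets, and with 2 numbers this does not establish pairs; with the block Csad, Afmid and Prodh were again the 3 members called. Offsets of 1 and 32, quantile normalization, robust eBayes and averaging over the probe sets of each gene left the same 3 members called. Once the suffix types _s_at, _x_at and _a_at were dropped (the last marks probe sets that match several transcripts of 1 gene, such as that of Csad), 33 members were tested and Otc, Afmid and Prodh were called, since Csad then had no probe set. The causes of these changes were not tested. With 2 arrays per group, differences of the size seen for most members are within the error.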

Other observations

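Afmid shares its start region with Tk1, which encodes the thymidine kinase of dividing cells and is no member; it was looked at after the values of Afmid were seen. In RefSeq the genes lie on opposite strands and their starts are 95 bases apart, so that the transcripts overlap there. Tk1 was read from a single probe set, named by the platform annotation alone, and whether it measures the Tk1 transcript was not checked. Its signals were 2252 and 1785 after sham surgery and 1243 and 2144 after hepatectomy, a log2 difference of -0.30 ± 0.26 that was not called (limma adjusted p = 0.644). The groups overlapped for Tk1 and not for Afmid. Of the other genes whose start lay within 1000 bases of a member's, Bhmt2 (next to Dmgdh), Shld2 (next to Glud1) and Zfp740 (next to Csad) were tested and none was called (adjusted p = 0.879, 0.501 and 0.996).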
